A study of Ovis aries with 16 samples.

Results

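SELP, ICAM1 and ITGAL encode proteins by which leukocytes attach to the wall of a blood vessel. They were measured in the hippocampus of 16 fetal sheep, and the genes are 3 of 1019 with a name among the probes of the array. All probes whose gene name or description in the array annotation names one of them were taken, which gave 5 probes of 15008, 2 for SELP, 1 for ICAM1 and 2 for ITGAL. The genes were chosen by measured values of these same arrays. SELP and ICAM1 were chosen for a higher level after hypoxia than after normoxia without ketamine, and ITGAL for a lower level of 1 of its probes with ketamine than without it in normoxia. Those values are given as a description, with no test.

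Leukocytes leave the blood in steps. P-selectin, the product of SELP, is stored in endothelial cells and platelets and is brought to the cell surface on activation, where it binds carbohydrates on passing leukocytes and lets them roll. Firm adhesion follows when integrins on the leukocyte, among them LFA-1, whose alpha chain CD11a is the product of ITGAL, bind ICAM-1 on the endothelium. Cytokines such as TNF and interleukin-1 induce adhesion molecules through NF-kappaB, and in the resting brain vessels carry little of them.

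The 4 groups were normoxia control (NC, 3 fetuses), normoxia plus ketamine (NK, 4 fetuses), hypoxia control (HC, 5 fetuses) and hypoxia plus ketamine (HK, 4 fetuses). All were late-gestation fetuses with implanted vascular catheters, exposed through the ewe to 30 min of normoxia or of hypoxia, and the hippocampus was taken at 24 h. The ketamine groups had received 3 mg/kg of ketamine intravenously before the exposure, and the controls received no ketamine. Nearly all were twins by the study's methods, which assigned each pregnancy to normoxia or hypoxia. Fetuses with and without ketamine at the same oxygen may thus share a pregnancy. The labels do not tie fetuses to pregnancies, so the main fit used no pairs and p-values measure the spread between these 16 arrays. The arrays lay on 2 slides, each of which held all 4 groups. Levels are log2 intensities relative to the 75th percentile of the probes of the same array, so a level of 0 lies at that percentile. Whether a spot was well above background was taken from the scanner software, which set it at 13 standard deviations of the background. Between 76.7% and 82.6% of the spots of an array were. Precision is limited by how many arrays each group had. RNA from whole tissue cannot tell fewer cells of a type from less RNA per cell.

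The array labelled HC5 stood apart in markers of hippocampal neurons and in some markers of other cells. NEUROD1, a transcription factor of granule neurons, had a level of -5.92 in HC5 and of -1.32 to 2.01 on the other 15 arrays. SST, the neuropeptide somatostatin, had a level of 1.85 in HC5 and of 4.19 to 5.21 elsewhere. All 4 measured neuron markers were lowest in HC5, although all were well above background on every array. HC5 was also above the other arrays in HBB of red blood cells (5.08, elsewhere at most 4.59) and AQP4 of astrocytes (6.21, at most 6.09). Of endothelial markers TIE1 was higher (-3.30, at most -3.47) and EDN1 lower (-3.16, at least -2.74). The remaining markers lay within the range of the other arrays. The differences of the 3 genes that use the HC arrays, and the calls of the gene lists, are therefore given with and without HC5.

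The probe sequences are shown here because 2 probes of the same gene carry the comparisons of SELP and of ITGAL. The probes for SELP begin at bases 2411 and 2480 of the transcript record that the annotation gives, with 9 bases between them, and the first 30 bases of each are printed. The ICAM1 probe begins at base 1522 of its record. The ITGAL probes begin at bases 3387 and 3388 and share 59 of 60 bases, which are in capitals.
SELP A_70_P039517: cagctttcccgaaaagacttgattataact
SELP A_70_P039516: taaaggacatggaatttcctttagatttgt
ICAM1 A_70_P030136: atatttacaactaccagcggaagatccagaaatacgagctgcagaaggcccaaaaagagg
ITGAL A_70_P030397: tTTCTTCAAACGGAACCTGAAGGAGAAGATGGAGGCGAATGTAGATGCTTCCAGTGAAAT
ITGAL A_70_P030396: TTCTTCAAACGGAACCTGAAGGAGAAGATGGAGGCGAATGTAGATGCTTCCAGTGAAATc

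SELP was low in both normoxia groups and higher in both hypoxia groups, most of all in HC. With its brighter probe, A_70_P039517, SELP had levels of -4.80, -4.54 and -6.06 in NC and of -6.48, -4.08, -4.78 and -5.71 in NK. In HC the levels were -0.45, -0.40, -1.35, 1.38 and -4.05, and in HK they were -1.91, -1.74, -4.55 and -2.74. The lowest HC array, HC5, still lay above every NC array, and the lowest HK array, HK3, lay within the range of NK. Group means were -5.13 ± 0.81 (SD, n = 3) in NC, -5.26 ± 1.05 (SD, n = 4) in NK, -0.97 ± 1.98 (SD, n = 5) in HC and -2.74 ± 1.28 (SD, n = 4) in HK. The probe was well above background on 15 of 16 arrays, all but NK1. Its processed intensity ran from 13.8 to 44.8 units in NC and from 59.5 to 2841 units in HC.

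**Figure D1:**
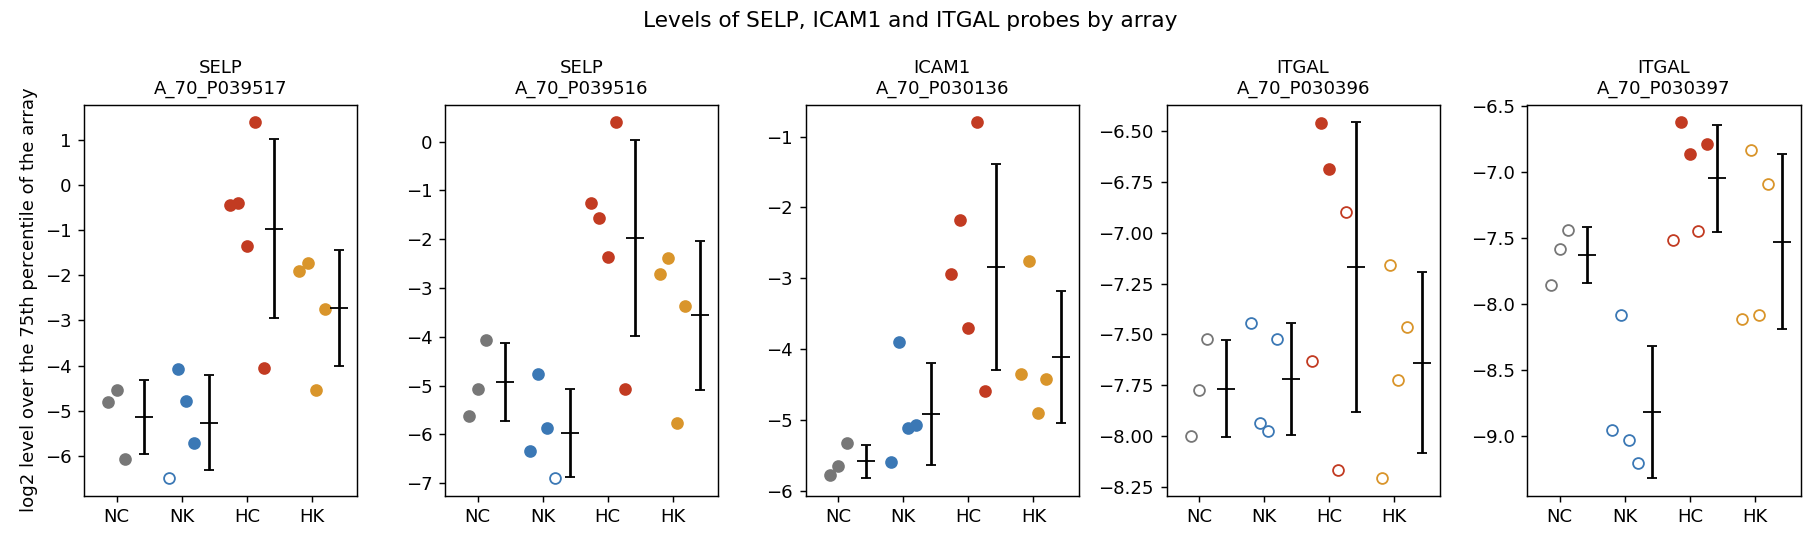
Level of each probe on each array, as log2 over the array's 75th percentile, by group. Filled points were well above background, open points were not, and the bars give the group mean and SD. SELP and ICAM1 were highest in HC4, while both ITGAL probes were well above background only on some HC arrays.

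The other SELP probe, A_70_P039516, gave the same order of hypoxia above normoxia. Its levels were -5.63, -5.07 and -4.07 in NC and -6.33, -4.77, -5.87 and -6.89 in NK. They were -1.25, -1.57, -2.37, 0.39 and -5.08 in HC and -2.71, -2.39, -5.76 and -3.38 in HK. Again HC4 was the highest array, and HC5 and HK3 were the lowest of their groups. Here HC5 lay below NC3 and at about the level of NC2, so HC and NC overlapped. Over the 16 arrays the SELP probes had a Pearson r of 0.94, and of 0.88 after the group means were subtracted.

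HK-NK, the effect of hypoxia in ketamine-treated fetuses, compares arrays that took no part in the choice of SELP. The SE, interval and limma p-values still use the spread of all 4 groups, HC and NC included. HK and NK fetuses may also share pregnancies with HC and NC fetuses. SELP rose by 2.53 on the log2 scale in HK-NK with A_70_P039517 (SE 0.95, 95% confidence interval 0.50 to 4.56, adjusted p = 0.907 by limma). With A_70_P039516 it rose by 2.41 (SE 0.97, adjusted p = 0.910 by limma). The criterion for a rise or fall, here and below, was an unadjusted p under 0.05 in limma's moderated two-sided test, which 2.87% of the 12541 tested probes met with a higher and 2.31% with a lower value in HK-NK. Both SELP probes met it and neither passed after Benjamini-Hochberg adjustment over all tested probes, where none of the 12541 did. For each probe 3 of 4 HK arrays lay above every NK array, and the exact two-sided permutation test of 4 against 4 arrays gave p = 0.0571, where the smallest it can give is 0.0286. HK3 was the array that overlapped.

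The difference of the brighter SELP probe changed with single arrays, the slide and the processing, for causes that were not tested. Without NK1, the array on which the brighter SELP probe was not well above background, it was 2.12, and without HK2 it was 2.20. Within slide 1 the difference was 3.46 and within slide 2, which holds HK3, it was 1.60. In the authors' log2 table, where dim signals were raised, it was 0.51, and with normexp background correction it was 1.01. Of these values only that within slide 1 met the criterion. Among all alternatives 25 met it and 5 did not, and as they reuse the same arrays they are not independent of each other.

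The remaining SELP differences describe the values that chose the gene or share arrays with them. In HC-NC the log2 difference of A_70_P039517 was 4.16 (SE 0.98) and that of A_70_P039516 was 2.95 (SE 1.00). Without HC5 they were 4.93 and 3.73. In HK-HC, the comparison of hypoxia with and without ketamine, the differences were -1.76 (SE 0.90) and -1.59 (SE 0.92), or -2.53 and -2.36 without HC5. The HC and HK arrays overlapped for both probes. In NK-NC, ketamine in normoxia, the differences were -0.13 (SE 1.02) and -1.04 (SE 1.05), within the spread of the arrays. The interaction term, HK-NK less HC-NC, was -1.63 (SE 1.36) with the brighter probe, or -2.40 without HC5, and is a description since it contains the values that chose SELP.

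**Figure D2:**
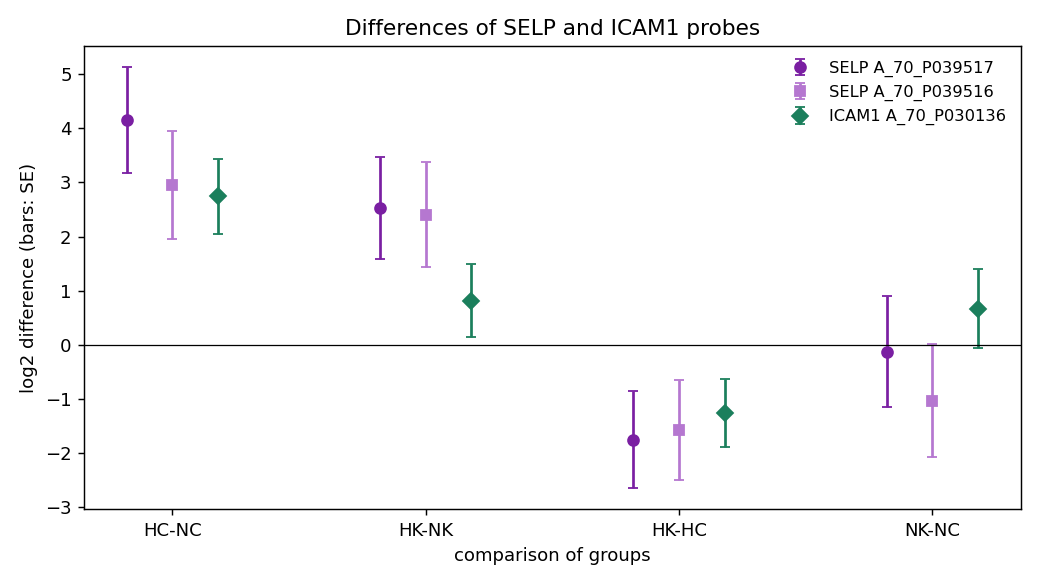
Log2 difference between groups for the SELP and ICAM1 probes in the 4 comparisons, with SE bars from the fit of all 16 arrays. HC-NC chose the genes, and HK-HC shares the HC arrays with it. SELP lay near 2.5 in HK-NK with both probes, and ICAM1 lay at 0.81.

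ICAM1, the endothelial ligand of LFA-1, followed a like order with a smaller range. Its probe was well above background on all 16 arrays. The levels were -5.78, -5.64 and -5.33 in NC and -5.59, -3.90, -5.11 and -5.07 in NK. They were -2.93, -2.18, -3.69, -0.80 and -4.59 in HC and -4.35, -2.76, -4.90 and -4.42 in HK. HC4 was the highest array and HC5 the lowest of the HC arrays, and all 5 lay above the NC arrays. Of the NK arrays NK2 alone stood above HC5. Group means were -5.59 ± 0.23 (SD, n = 3) in NC, -4.92 ± 0.72 (SD, n = 4) in NK, -2.84 ± 1.45 (SD, n = 5) in HC and -4.11 ± 0.93 (SD, n = 4) in HK. The neighbours NC and NK, and NK and HK, overlapped or lay within their spread of each other.

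ICAM1 did not meet the criterion in HK-NK, whose arrays took no part in its choice, though the SE and limma p use the spread of all groups. The log2 difference was 0.81 (SE 0.67, 95% confidence interval -0.62 to 2.25, p = 0.246 by limma, adjusted p = 0.959), and the exact two-sided permutation test of 4 against 4 arrays gave p = 0.229. The interval leaves room for a small fall as well as for a rise as large as 2.25. All 4 HK arrays lay above the median of the NK arrays, but only HK2 lay above all of them, since NK2 was high. The difference missed the criterion under every alternative tried, with p from 0.129 to 0.718 by limma.

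In HC-NC, which chose the gene, the log2 difference of ICAM1 was 2.75 (SE 0.69), and 3.18 without HC5. In HK-HC it was -1.27 (SE 0.64), and -1.70 without HC5, and the arrays overlapped. In NK-NC it was 0.67 (SE 0.72). The interaction term, HK-NK less HC-NC, was -1.93 (SE 0.96), or -2.37 without HC5, and contains the values that chose ICAM1.

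SELP and ICAM1 varied together from fetus to fetus. With A_70_P039517 they had a Pearson r of 0.91 over the 16 arrays and of 0.84 after group means were subtracted. The points share arrays, and with them RNA quality and scaling. Both genes were chosen for a higher level in HC than in NC, so a high r over all arrays follows in part from the choice. HC4 had the highest level of both genes and HC5 the lowest of both within HC, HK3 was the lowest and HK2 the highest of both within HK, and NK2 was the highest of both within NK. In NC the order did not match, since NC3 had the lowest SELP by this probe and the highest ICAM1.

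**Figure D3:**
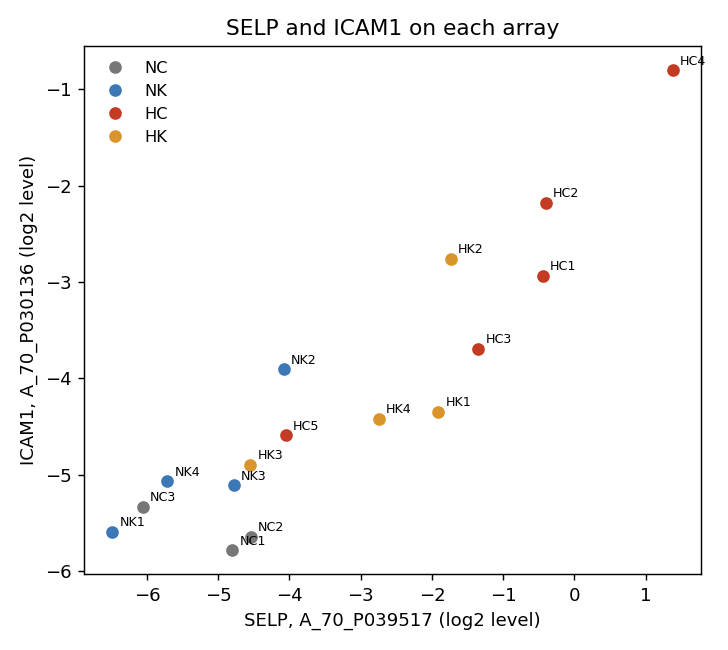
Level of SELP (A_70_P039517) against that of ICAM1 on each of the 16 arrays, both as log2 over the array's 75th percentile, colored by group. HC4 is the highest array for both genes, and HC5 and HK3 lie near the NK and NC arrays.

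ITGAL, the CD11a chain of the leukocyte integrin LFA-1, was at or near background. A_70_P030396, the brighter probe by its mean and printed as 5 spots, was well above background on 2 of 16 arrays, HC2 and HC3, and did not pass the filter of 3 arrays. Its processed intensity was 4.30, 4.77 and 4.99 units in NC and 5.68, 4.40, 4.02 and 5.00 units in NK. It was 6.05, 13.8, 10.4, 3.80 and 8.26 units in HC and 3.97, 6.79, 4.81 and 5.03 units in HK. By intensity the HC arrays held both the lowest and the highest array of all.

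The other probe, A_70_P030397, is shifted by 1 base and is printed as 1 spot. It was well above background on 3 of 16 arrays, HC2, HC3 and HC5, so that it passed the filter through the HC group alone. Its intensity was 4.74, 5.43 and 5.30 units in NC and 1.99, 3.98, 1.94 and 1.56 units in NK. It was 6.58, 12.3, 9.21, 6.28 and 8.91 units in HC and 4.25, 8.54, 3.76 and 6.50 units in HK. The NK1 and NK4 readings, and no others of this probe, were surrogates, values that the scanner software put in place of measured ones. Neither NC nor NK had an array well above background with either probe, so no fold is given between them.

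The near-identical ITGAL probes disagreed in the comparison for which ITGAL was chosen. The log2 difference of the readings in NK-NC was -1.19 (SE 0.35) with A_70_P030397, and the groups did not overlap, while with A_70_P030396 it was 0.05 (SE 0.36), and they did. In that comparison 0.726% of tested probes met the criterion with a higher and 1.07% with a lower value. On 14 of 16 arrays the single spot lay within the range of the 5 spots of its neighbour, and on the other 2, NK1 and NK4, it lay below all of them. Both of those low readings were surrogates, as were some spots of A_70_P030396 in every group. The 5 spots themselves ran from 2.87 to 10.4 units on NK1 and from 2.51 to 7.37 units on NK4. Over the 16 arrays the ITGAL probes had a Pearson r of 0.58, against 0.94 for the SELP probes. In HK-NK, which shares the NK arrays, the readings differed by 0.08 (SE 0.33) with A_70_P030396 and by 1.29 (SE 0.32) with A_70_P030397.

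**Figure D4:**
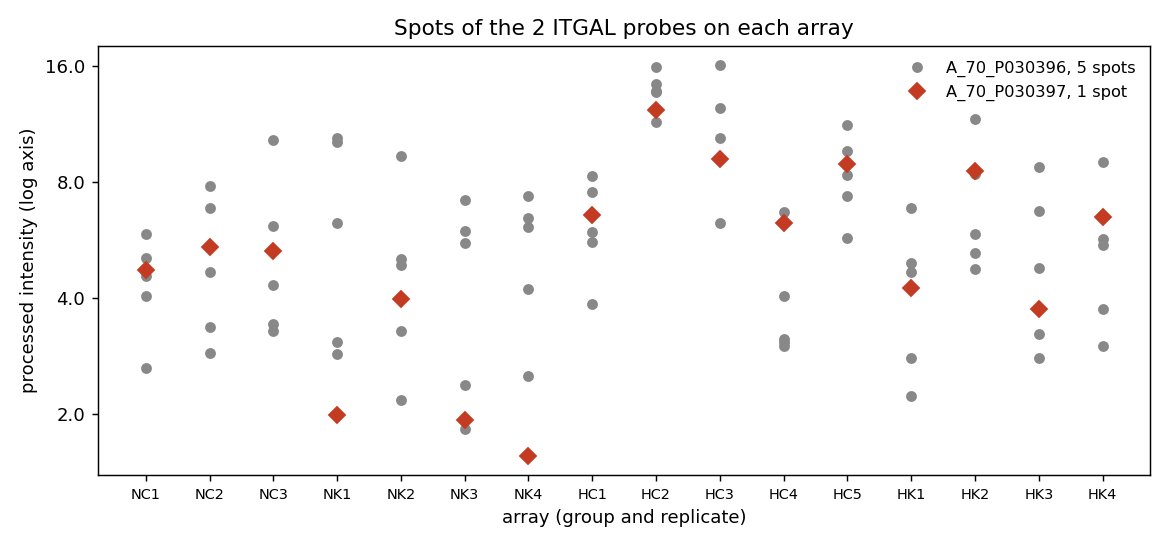
Processed intensity of each spot of the ITGAL probes on each array, on a log axis, with the 5 spots of A_70_P030396 in grey and the 1 spot of A_70_P030397 in red. The red points lie below all grey points on NK1 and NK4, where they are surrogate values. The highest spots are on HC2 and HC3.

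HK-HC is the comparison of ITGAL whose arrays its choice did not use, though the SE rests on the spread of all groups. The log2 difference was -0.47 with A_70_P030396 (SE 0.31, 95% confidence interval -1.14 to 0.20, by limma fitted without the filter), which did not meet the criterion, or -0.40 without HC5. With A_70_P030397, which passed the filter through HC, it was -0.48 (SE 0.30), given with no test. In HK-HC 2.89% of tested probes met the criterion with a higher and 1.88% with a lower value. For A_70_P030396 the exact two-sided permutation test of 4 against 5 arrays gave p = 0.270, where the smallest it can give is 0.0159. No HK array was well above background, and with those arrays at their detection limit no fold can be stated. Without HC4, the lowest HC array for the brighter probe, the difference was -0.72 and met the criterion, and with normexp background correction the sign turned, to 0.09. In HC-NC the readings differed by 0.60 (SE 0.34) and 0.58 (SE 0.33), or by 0.53 and 0.52 without HC5, and no fold can be stated there either.

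Other genes of the adhesion steps and their inducers were taken from 4 lists, with each gene read by its brightest probe. Of 127 listed genes 43 had a probe and 37 passed the filter. In HC-NC 9 of 37 genes met the criterion with a higher value and 0 with a lower one, with a median log2 difference of 0.14 over the 37 genes and of -0.02 over all tested probes. Among all tested probes 4.67% met the criterion with a higher and 5.92% with a lower value in HC-NC. In HK-NK 3 rose and 1 fell, with a median of 0.16. In HK-HC 0 rose and 3 fell, with a median of -0.10. Leaving out 1 array at a time moved that count between 1, without HK4, and 8, without HK2, of which 1 rose and 7 fell. Of all probes 598 met the criterion in the main fit, 727 without HK4 and 752 without HK2. In NK-NC 0 met the criterion, with a median of 0.01. With the replicate number of the labels as a block within each oxygen group 1 gene did in NK-NC, EGR1, named here after its value was seen. Of all probes 444 met the criterion there, against 225 in the main fit. For the interaction, HK-NK less HC-NC, 2.39% of tested probes met the criterion with a higher and 1.01% with a lower value, and 1 of 37 genes did, TNFRSF1A. None of these genes passed after adjustment over all tested probes.

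Of the inducers, the longest list, 6 of 22 tested genes met the criterion with a higher value in HC-NC. The integrins had 2 of 7, the rolling list 1 of 2 and the endothelial ligands 0 of 6. IRF1, an interferon-induced transcription factor, had levels from -3.89 to -3.41 in NC and from -2.06 to 0.75 in HC, a log2 difference of 2.82 (SE 0.78). TNF, the cytokine that induces ICAM-1, lay between -7.54 and -6.15 in NC and between -5.42 and -3.36 in HC, with a difference of 2.25 (SE 0.70). For both genes every HC array lay above every NC array. TNF was well above background on only 2 of 3 NC arrays, so its difference is one of readings and no fold is given. Without HC5 the differences were 3.05 and 2.40. IL1B, the cytokine interleukin-1 beta, rose by 1.18 (SE 0.34). NFKBIA, the inhibitor of NF-kappaB that NF-kappaB itself induces, rose by 1.31 (SE 0.35), but its lowest HC array, HC5, lay within NC. Without HC5 these were 1.24 and 1.65. TNFRSF1A and IKBKB rose too. IRF1, TNF, IL1B and NFKBIA, and the markers CD14, LTF and CATHL3 below, were already known to differ in these arrays when the lists were chosen. All lists, those of markers included, were chosen with earlier results of these data known, so no count from them is independent evidence.

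Of the rolling list, which held the selectins and the enzymes that build their ligands, 3 of 18 genes had a probe and 2 were tested. ST3GAL4, a sialyltransferase that acts in the making of selectin ligands, rose by 0.43 in HC-NC (SE 0.13) and by 0.34 in HK-NK (SE 0.13), with no overlap of groups in either. SELE, the endothelial E-selectin, was well above background on at most 1 array and was not tested. Of the 7 integrin genes tested ITGB1 rose in HC-NC. ITGB3 met the criterion there too, but it stood well above background on 0 of 3 arrays in NC and on 2 of 5 in HC, so a rise is not shown and no fold is given. ITGB2, the beta chain that pairs with CD11a, met the criterion in none of the 4 comparisons, while among 31 alternatives it did with a higher value in HC-NC under 11, with a lower one in HK-HC under 4 and with a lower one in NK-NC under 1.

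Of the endothelial ligands and genes of transmigration, 0 of 6 met the criterion in HC-NC and 1 rose in HK-NK. That gene was VCAM1, the endothelial ligand of the integrin VLA-4, with levels from -4.22 to -2.92 in NK and from -3.00 to -1.55 in HK and a log2 difference of 0.93 (SE 0.34). IRF1 rose by 1.75 in HK-NK (SE 0.76), and KDR, a receptor of vascular endothelial growth factor, fell by 0.51 (SE 0.19). Without HK2 none of the 37 genes met the criterion in HK-NK, where 491 of all probes did, against 650 in the main fit. The genes lower in HK-HC were TNF at -1.52 (SE 0.64), IL1B at -0.83 (SE 0.32) and HIF1A, the oxygen-regulated transcription factor, at -0.44 (SE 0.16). TNF was well above background on only 2 of 4 HK arrays, so its value is a difference of readings and no fold is given. These HK-HC values use the same HC arrays as HC-NC. Without HC5 there were 12 genes past the criterion in HC-NC, 5 in HK-HC and 5 in HK-NK, beside 1207, 765 and 791 of all probes. HK-NK holds no HC array, so its differences stayed the same and only the estimate of the spread changed.

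**Figure D5:**
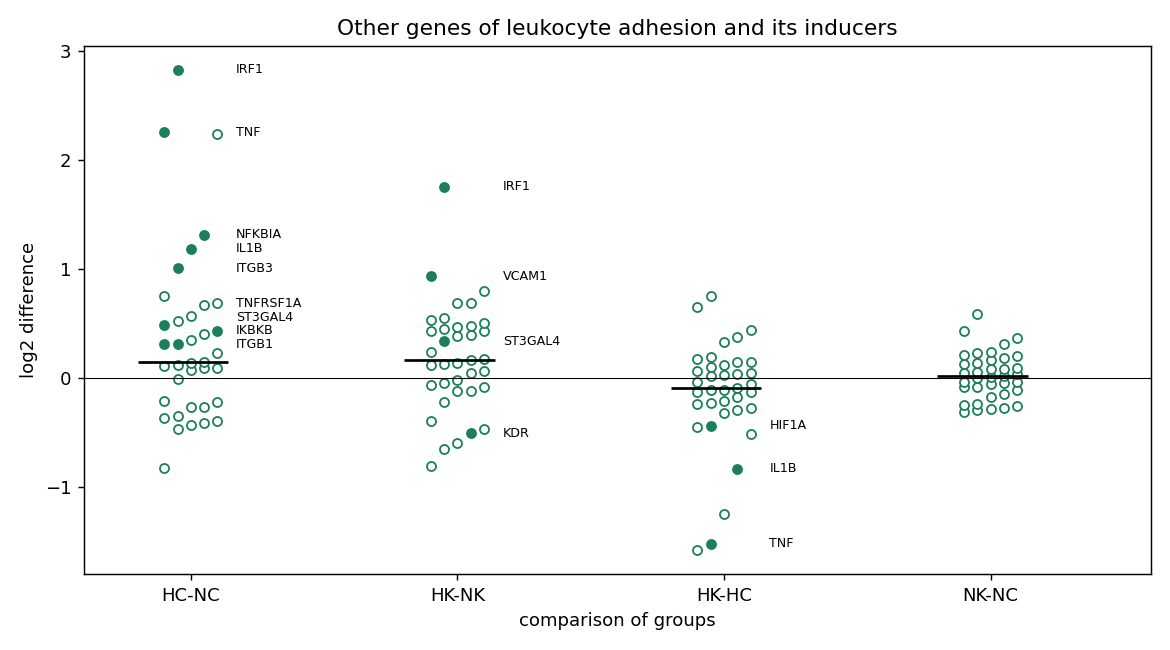
Log2 difference of each of 37 other genes of leukocyte adhesion and its inducers in the 4 comparisons. Filled points met the criterion and are named at their right, open points did not, and black lines give the median, which was 0.14 in HC-NC and 0.16 in HK-NK.

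Cells that could carry these transcripts were read through marker lists. Of 17 endothelial markers 9 were measured, all well above background on every array, and in HC-NC 1 of them, SLC2A1, rose and 0 fell, while in HK-NK only KDR met the criterion. Their log2 differences ran from -0.47 for NOS3 to 0.73 for EDN1 in HC-NC and from -0.51 for KDR to 0.80 for EDN1 in HK-NK. PECAM1, the adhesion molecule of endothelial junctions, differed by 0.09 (SE 0.24) and 0.23 (SE 0.24). Without HC5, EDN1 met the criterion with a higher value in both comparisons, SLC2A1 also in HK-NK, and TEK fell in HC-NC. The differences in HK-NK, which holds no HC array, stayed the same, and only the estimate of the spread changed. The summed level of the endothelial markers, in multiples of the 75th percentile, ran from 3.83 to 4.12 in NC, 3.45 to 4.66 in NK, 4.07 to 7.14 in HC and 4.34 to 6.04 in HK. Sums here and below add levels on the linear scale, so the brightest marker of a list weighs most and a sum does not measure cells. For the endothelium that was SLC2A1, with log2 levels of 1.04 to 1.12 in NC and of 1.14 to 2.27 in HC. None of the 13 platelet markers had a probe, so platelets, which also carry P-selectin, were not followed here.

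Some markers of leukocytes differed between the groups. Of 5 measured markers of microglia and macrophages 3 rose in HC-NC, CD14, FCER1G and FCGR1A, 0 met the criterion in HK-NK, and CD14 and FCGR1A fell in HK-HC. Without HC5 these calls held, and CD14 met the criterion in HK-NK as well, at an unchanged difference of 0.83. Only the estimate of the spread changed there. Their summed level ran from 0.50 to 0.62 in NC, 0.54 to 0.64 in NK, 0.83 to 2.09 in HC and 0.57 to 1.02 in HK. Of 17 neutrophil markers 2 were measured, LTF and CATHL3, and in HK-NK both rose, by 1.99 (SE 0.68) and 4.42 (SE 1.26), while 0 met the criterion in HC-NC, at 1.48 (SE 0.71) and 2.47 (SE 1.30). Their summed level ran from 0.09 to 0.28 in NC, 0.05 to 0.27 in NK, 0.27 to 5.74 in HC and 0.29 to 7.16 in HK. Of 5 markers of T and NK lymphocytes CD5 alone rose in HC-NC, with sums of 0.83 to 0.94 in NC, 0.74 to 1.1 in NK, 0.88 to 1.21 in HC and 0.62 to 1.25 in HK. The single B lymphocyte marker, CR2, met the criterion in no comparison, with levels of 0.00306 to 0.0185 times the 75th percentile over all arrays and in no group well above background on every array. Of the red blood cell markers HBB and AHSP, AHSP rose in HC-NC, and their sum ran from 8.28 to 15.1 in NC, 13.4 to 20.1 in NK, 6.08 to 34.1 in HC and 10.5 to 21.2 in HK. HC5, where HBB was highest, gave the 34.1. By mean level FCER1G, CATHL3, CD247 and HBB were the brightest markers in the sums of their lists. The part of these markers in the differences of SELP, ICAM1 and ITGAL was not tested.

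Among brain markers GRIA1 fell and GJA1 rose in HC-NC, out of 4 neuron and 5 astrocyte markers. Without HC5, GRIA1 no longer met the criterion, at -0.45, and GJA1 still did. NEUROD1 and SST, the markers low in HC5, then met it in HK-HC, NEUROD1 lower and SST higher. NEUROD1 also met it in HK-NK with a lower value, at an unchanged -1.30. HK-NK holds no HC array, so only the estimate of the spread changed there. The summed neuron markers ran from 29.2 to 34.9 in NC, 26.4 to 39.9 in NK, 4.23 to 36.2 in HC and 34.8 to 39.9 in HK, and HC5 gave the low value. The summed astrocyte markers ran from 63.4 to 73.7 in NC, 56.2 to 72.1 in NK, 62.9 to 90.4 in HC and 63.5 to 79.2 in HK. HC5, where AQP4 was highest, gave the 90.4. None of 4 choroid plexus markers met the criterion, but TTR, transthyretin, differed widely between arrays, from -1.45 in HC1 to 6.39 in NC2. The summed choroid plexus markers ran from 1.48 to 84.0 in NC, 0.98 to 70.7 in NK, 0.92 to 77.5 in HC and 1.57 to 50.5 in HK. By mean level SST, AQP4 and TTR were the brightest markers in the sums of their lists.

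The named genes whose pattern over the 16 arrays was most like that of SELP, out of 818 compared, were RCAN1 (r = 0.92), ICAM1 (r = 0.91), PDXK (r = 0.90), NFKBIA (r = 0.90) and CD14 (r = 0.89). After group means were subtracted their r was 0.77, 0.84, 0.67, 0.75 and 0.67. RCAN1 encodes a regulator of calcineurin, PDXK the kinase of vitamin B6 and CD14 a coreceptor for lipopolysaccharide. For ICAM1 they were SELP (r = 0.91), MCL1 (r = 0.90), IRF1 (r = 0.86), CD40 (r = 0.86) and PLAUR (r = 0.86), with 0.84, 0.82, 0.72, 0.83 and 0.76 within groups. MCL1 is a survival factor, CD40 a receptor of the TNF family and PLAUR the urokinase receptor. For ITGAL, read by A_70_P030396 close to background, they were IL10 (r = 0.89), FCER1G (r = 0.85), TLR6 (r = 0.83), CTSS (r = 0.82) and ITGB2 (r = 0.81). Within groups these were 0.95, 0.81, 0.84, 0.83 and 0.77. ITGB2 encodes the integrin chain that pairs with CD11a, and FCER1G and CTSS are expressed in myeloid cells. The points share arrays and the order of r was chosen on these arrays.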

How the data were processed

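Cy3-labeled hippocampal RNA was measured on ovine arrays of 1 color. The authors deposited spot intensity values, background-subtracted within the array by Feature Extraction 10.1.1.1 per the file headers, without normalization between arrays, and a log2 table. The table's log2 values were quantile normalized by the authors and raised at low signals, and the processing notes name limma and R 2.15.1. The genome build is not given in the sources used here. From the intensity, log2 was taken, the 75th percentile of each array was subtracted, outlier and control spots were left out, and spots of a probe were averaged. A probe was tested if 3 or more of 16 arrays had it well above background. Names came from the array annotation and from RefSeq (ARS-UI_Ramb_v3.0) by accession, gene ID or symbol, for 1658 of 15008 probes (11.0%). One fit of the 4 groups with limma 3.58.1 in R 4.3.3 gave every comparison, with Benjamini-Hochberg adjustment over tested probes, and was tested on simulated data. Single genes were compared with exact permutation tests in scipy 1.17.1. Members, lists, the naming rule and tests were chosen with earlier results of these data known. The named genes were the members with every probe, genes of the 4 lists past the criterion (values for at most 6 per comparison), and the 5 most like each member. The alternatives were normexp with an offset of 50, quantile and median scaling, the authors' log2 values, no filter or all 16 arrays, slide or replicate blocks, only 2 groups, array weights, another prior, the mean of a gene's probes and leaving out each array. Analyses within each slide were added after seeing the data. Same-numbered NC and NK arrays deviated together, with correlations of 0.37, 0.31 and 0.21, by the replicate numbers of the labels. For HC and HK they were 0.40, 0.31, 0.07 and 0.12. Arrays of unlike number ran from -0.20 to 0.23 for NC and NK and from -0.33 to 0.23 for HC and HK. Whether same-numbered arrays came from 1 pregnancy is not known.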

Additional observations from a re-analysis of the deposited data

Results flagged for a closer look

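TNFRSF1A, a receptor of TNF on the lists of adhesion inducers, was picked out by its interaction of hypoxia with ketamine, before adjustment. The interaction term, HK-NK less HC-NC, was -0.61 on the log2 scale (SE 0.25, adjusted p = 1.00 by limma). It was the only one of the 37 list genes whose interaction met the criterion, beside 1.01% of all tested probes with a lower value, and without HC5 it missed it, at -0.55. Levels ran from -4.34 to -4.27 in NC, -4.22 to -3.57 in NK, -4.19 to -3.57 in HC and -4.43 to -3.80 in HK. FCGR1A, an Fc receptor and 1 of the 5 microglia and macrophage markers, also met the criterion for the interaction, at -1.31 (SE 0.61, adjusted p = 1.00 by limma), and missed it without HC5, at -1.37. Its levels ran from -4.62 to -4.00 in NC, -4.62 to -3.67 in NK, -4.35 to -2.14 in HC and -4.95 to -3.88 in HK. No array of the 5 probes of SELP, ICAM1 and ITGAL lay far enough from its group of 4 or 5 to pass Dixon's test.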

How the results depend on the processing

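ICAM1 missed the criterion in HK-NK under every alternative. In HK-HC ICAM1 and SELP moved by less than the SD within groups under each. That SD was wide, at 1.03 for ICAM1 and 1.45 for SELP, beside differences of -1.27 and -1.76. Leaving out 1 array at a time gave -1.71 to -0.76 for ICAM1 and -2.53 to -1.16 for SELP in HK-HC. Normexp background correction moved the median of all tested probes from -0.02 to 0.36 in HC-NC and from 0.01 to 0.30 in NK-NC. In HK-NK it moved that median from -0.01 to 0.08 and in HK-HC from 0.02 to 0.05. Each value is read against the shift of its own comparison. With normexp SELP in HK-NK was 1.01, and ITGAL turned from -0.47 to 0.093 in HK-HC and was 1.00 in NK-NC. It left 0 list genes past the criterion in HK-HC and 0 in HK-NK, where 90 and 73 of all probes met it. In the main fit 598 and 650 of all probes did. In the authors' log2 table SELP was 0.51 in HK-NK and 1.58 in HC-NC, and ICAM1 was 0.58 in HC-NC. There 1 list gene met the criterion in NK-NC, beside 169 of all probes. With the mean of its probes ITGAL was -0.57 in NK-NC. With the replicate number of the labels as a fixed block the counts of list genes were 14 in HC-NC, 6 in HK-HC and 7 in HK-NK. Of all probes 1523, 1054 and 1065 then met the criterion, against 1328, 598 and 650 in the main fit. SELP in HK-NK stayed at 2.53. With the replicate block within an oxygen group the list genes were 1 in NK-NC, 9 in HK-HC and 10 in HC-NC, where ITGB2 was gained. Of all probes 444, 1197 and 1314 met it there, and of the 9 list genes 3 were higher and 6 lower. SELP and ICAM1 in HK-NK and ITGAL in HK-HC kept their side of the criterion with either block. The fit of only 2 groups gave counts of 1 in NK-NC and 1 in HK-HC, beside 324 and 435 of all probes. Array weights gave 2 and 9, beside 429 and 964 of all probes. The trended and robust prior gave 1 in NK-NC, beside 190 of all probes. Within slide 1 the counts of list genes were 1 in NK-NC and 7 in HK-NK, beside 214 and 813 of all probes. Within slide 2, where NC3 was the only NC array, SELP was 1.60 in HK-NK and counts are not given. Leaving out 1 array at a time gave SELP 2.12 to 3.13 and ICAM1 0.36 to 1.15 in HK-NK and ITGAL -0.72 to -0.28 in HK-HC. It gave 8 to 13 list genes in HC-NC, 0 to 1 in NK-NC (1 without NC1, NC2, NC3, NK1, NK2 or HC1), 1 (without HK4) to 8 (without HK2) in HK-HC, with 7 without HC1 and 5 without HC3 or HC5, and 0 (without HK2) to 6 (without HK3) in HK-NK. Of all probes 727 met the criterion in HK-HC without HK4, 752 without HK2, 1079 without HC1, 550 without HC3 and 765 without HC5. In HK-NK 491 did without HK2 and 801 without HK3. The cause of these changes was not tested. SELP and ITGAL had no value over probes well above background on all 16 arrays.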
